A study of Mus musculus with 40 samples.

Results

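Resting regulatory T cells (Treg) were compared with resting conventional T cells of the mouse across all genes of 1 Affymetrix array type. The comparison was chosen by sample group: the 3 arrays of resting Treg and the 2 arrays of conventional T cells, which are 5 of the 8 arrays of sorted T cells and of the 40 arrays of the series. The other 3 arrays of sorted T cells hold Treg stimulated through CD3 and CD28 and served here only to estimate the spread. Each of 18193 genes was represented by 1 probe set, the one with the highest mean over the 8 arrays among the probe sets annotated with that gene alone. All cells came from C57Bl/6 mice of the genotype Foxp3GFP, a reporter allele that makes Foxp3-expressing cells fluorescent, and ages are not given in the labels. Treg were sorted as CD4+ CD45RBlow GFP+ cells and conventional T cells as CD4+ CD45RBhi GFP- cells, and both were then kept for 48 h in RPMI medium with 10% serum and no stimulus. The groups therefore differ in CD45RB, a surface protein that CD4 T cells lose after meeting antigen, as well as in Foxp3-GFP, and what belongs to the Treg lineage and what to the CD45RBlow state cannot be told apart here. The labels name bone marrow as the source, and they say neither whether animals were pooled nor whether replicates came from separate cultures, so every p-value here rests on the variation among these arrays, part of which may be technical.

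Treg are CD4 T cells that hold other immune cells in check. Their lineage is fixed by the transcription factor Foxp3, which works with partners of the Ikaros family and keeps the cells dependent on interleukin-2 from outside, since they carry its high-affinity receptor and make little of it themselves. They act through inhibitory receptors such as CTLA-4, through enzymes that turn extracellular ATP into adenosine, and through cytokines and cell contact. Conventional CD4 T cells with high CD45RB are mostly naive: they circulate through lymphoid organs and are held quiescent by factors of the KLF, FOXO and TCF families.

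All values are log2 signals as deposited, so a difference of 1 is a doubling of signal, and differences are given as resting Treg minus conventional T cells with the standard error of limma's fit. A gene is called where limma's adjusted p (Benjamini-Hochberg, over all 18193 genes) was under 0.05. Checked against its markers, the T cell receptor gene Cd3e read 9.89, 9.63 and 9.65 in the Treg arrays against 9.87 and 9.81 in the conventional arrays, and the Treg genes Foxp3, Ikzf2, Nrp1 and Ctla4 were separate in every array, as described below. Foxp3 checks only the sort, since the cells were gated on Foxp3-GFP. Of 11 T cell markers measured, Cd6 was called higher in Treg and Trat1 lower, against 3.87% and 1.67% of all genes. By group means 8 were lower, and the median difference was -0.51. Their summed linear signal was 20547, 27879 and 31432 in the Treg arrays against 34780 and 33502 in the conventional arrays, below the conventional arrays in each Treg array and lowest in replicate 1. RNA quality was not equal. The Actb 3' minus 5' signal, which grows as RNA is degraded or copied from its 3' end, was 5.90, 2.50 and 2.67 in the 3 Treg arrays and 1.24 and 1.54 in the 2 conventional arrays, so all Treg arrays lay above both conventional ones and Treg replicate 1 stood far apart. The same measure for Gapdh overlapped between the groups, at 3.69, 2.92 and 2.69 in Treg and 2.71 and 3.05 in conventional T cells. Fitted with the 4 arrays under an Actb value of 4 from these groups and 1 stimulated array, 973 genes were called, 658 of them among the calls over all arrays. Of the named genes called, 35 lost their call in that fit. They include Lypd6b, Rassf3, Cap1, Lef1, Tox, Il1r2, Il7r, Icos, Lgals3, Penk, Ptger4, Ccr2, Cd81, Atp1b1, Cd55, Trat1, Malt1 and Myc. The rest were Il2, Gadd45b, Socs1, Socs3, Grap, Trib2, Pik3r5, Eif4ebp1, Rictor, Kdm2b, Gimap9, Ifit2, Isg20, Oasl2, Aldoc, Cd79a and Ighm.

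Animals of both sexes contributed RNA, which the labels do not state. Xist, the RNA that silences 1 X chromosome in females, read 4.35, 4.85 and 10.07 in the Treg arrays against 5.03 and 9.91 in the conventional arrays, and the Y-linked gene Eif2s3y read 11.10, 11.54 and 3.71 in the Treg arrays against 11.05 and 3.53 in the conventional arrays. Treg replicate 3 and conventional replicate 2 thus had high Xist and little Eif2s3y, and the other 3 arrays the reverse. Arrays of 1 group with opposite values did not measure the same RNA. With the Xist class as a term in the fit, an alternative added after these values were seen, 954 genes were called, 844 of them among those called without it. The term ended the calls of 11 of the genes named here: Il12rb1, Tnfrsf18, Penk, Trat1, Sit1, Bcl2l1, Gimap9, Ccne1, Oasl2, Cd79a and Rab20.

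**Figure D1:**
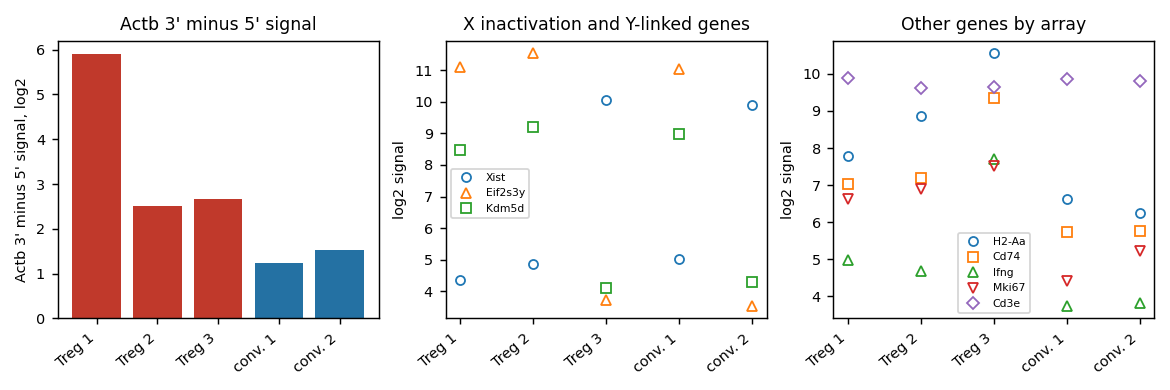
Quality and identity of the 5 arrays, in log2. The bars show the Actb 3' minus 5' signal of each array (red, resting Treg; blue, conventional T cells), highest at 5.90 in Treg replicate 1. The middle points show Xist and the Y-linked Eif2s3y and Kdm5d, which place Treg replicate 3 and conventional replicate 2 apart from the other 3 arrays, and the right-hand points show genes that were highest in Treg replicate 3 (H2-Aa, Cd74, Ifng, Mki67) beside the evenly measured Cd3e.

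The 2 conventional arrays were close to each other and the 3 Treg arrays less so. Only 27 genes differed by more than 1 between the conventional arrays, 12 higher in replicate 1 and 15 higher in replicate 2. In Treg replicate 3, 1009 genes lay more than 1 above the mean of the other 2 Treg arrays and 440 more than 1 below it. In Treg replicate 1, the array with the highest Actb value, 857 lay below and 239 above, and in replicate 2 the counts were 243 and 286. The median difference between the groups over all genes was 0.01.

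Of the 18193 genes, 1008 were called (5.54%), 704 higher in resting Treg (3.87%) and 304 lower (1.67%). At an unadjusted p under 0.05, 3248 genes passed. Differences upward were the larger ones: among the genes called higher the median was 1.67, with 258 at 2 or more and 38 at 4 or more. Among those called lower the median size was 1.31, with 56 at 2 or more and 8 at 4 or more. Separation of the arrays alone was far more common than a call. In 3928 genes (21.6%) all Treg arrays lay above both conventional arrays, and in 3714 (20.4%) all lay below. All 704 genes called higher and all 304 called lower were separate in this way, so separation adds nothing to a call. The calls lean on having 2 conventional arrays. Without conventional replicate 1, 242 genes were called, and without conventional replicate 2, 288, where the lone array is assumed to vary like the other groups. A total of 183 genes called higher and 45 called lower kept their call whichever single array was left out. Of the 166 called genes that the rule for naming picks out, 86 kept it, 51 lost it only where a conventional array was left out, and 29 lost it also without 1 of the Treg arrays.

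**Figure D2:**
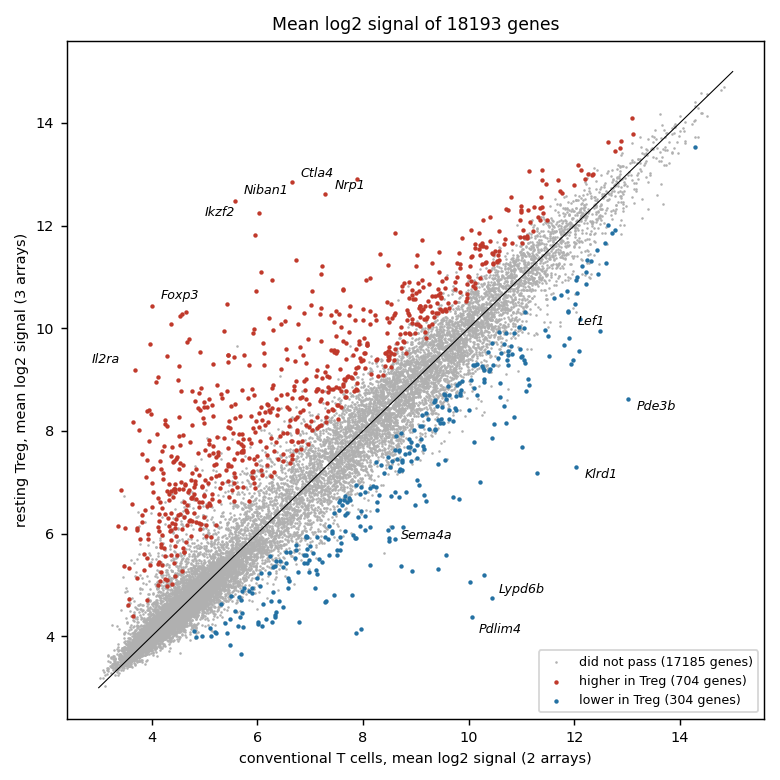
Mean log2 signal of 18193 genes in conventional T cells (horizontal axis, 2 arrays) and resting Treg (vertical axis, 3 arrays), with the diagonal of equal signal. Red points are the 704 genes called higher and blue points the 304 called lower. Niban1, Foxp3, Ikzf2, Ctla4, Il2ra and Nrp1 lie furthest above the diagonal among the labelled genes, and Lypd6b, Pdlim4, Klrd1 and Pde3b furthest below it.

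Foxp3 and its Ikaros partner Ikzf2 had the largest differences among 33 measured lineage transcription factors. Foxp3 read 10.38, 10.33 and 10.60 in the Treg arrays against 3.95 and 4.05 in the conventional arrays, a difference of 6.44 ± 0.16 (adjusted p = 1.57e-06). Ikzf2, which encodes Helios, read 12.48, 12.20 and 12.08 in the Treg arrays against 5.91 and 6.16 in the conventional arrays, a difference of 6.22 ± 0.19 (adjusted p = 2.39e-06). Neither gene's groups came near each other, and the spread within each group was under 0.5. The sort gated on Foxp3-GFP, so the Foxp3 difference was set by the gate. Ikzf4, which encodes Eos, a Foxp3 co-repressor, was higher by 3.68 ± 0.16, and Ikzf3, which encodes Aiolos, by 1.72 ± 0.32. In all 12 of the 33, Foxp3 included, were called higher and 1 lower, against 3.87% and 1.67% of all genes. The list's median difference was 0.55 against 0.01 over all genes. The others called higher were Maf (4.75 ± 0.27) and Rora (3.63 ± 0.15), factors of effector and tissue T cells, Bhlhe40 (3.41 ± 0.28), Hopx (2.84 ± 0.24), Id3 (2.74 ± 0.47), an inhibitor of E proteins, Irf4 (2.27 ± 0.30), Tox (1.20 ± 0.28) and Foxo1 (0.82 ± 0.16). The other probe sets of Foxo1 differed by 0.12, 0.18 and 0.25, none of them called, so its call rests on the chosen probe set. The gene called lower was Lef1 (-1.55 ± 0.26), a TCF family factor of naive T cells. Ikzf1, the founding Ikaros gene, read 11.75, 12.21 and 11.56 in the Treg arrays against 12.90 and 12.88 in the conventional arrays, below the conventional arrays in each Treg array without passing (adjusted p = 0.0677). All Treg arrays lay below both conventional arrays in 20.4% of all genes. The list kept 7 calls without conventional replicate 1 and 8 without conventional replicate 2. Fewer cells of a kind and less RNA per cell cannot be told apart in such bulk samples.

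The gene furthest higher was Niban1, which encodes a stress-induced regulator of translation. It read 12.60, 12.15 and 12.68 in the Treg arrays against 5.43 and 5.72 in the conventional arrays, a difference of 6.90 ± 0.21 (adjusted p = 2.39e-06), and its other probe set differed by 6.31 ± 0.25. Both probe sets thus showed Treg arrays well clear of conventional ones. Such agreement was not general among the 25 genes furthest higher. Nrp1, which encodes the semaphorin receptor neuropilin-1, was called on all 4 of its probe sets, with differences from 4.76 to 5.99. Ahnak, which encodes a large scaffold protein, differed by 5.86 ± 0.34 on the probe set chosen, but by 0.21, 0.22 and 0.37 on its other 3, none of them called. For Hdac9, a class IIa histone deacetylase gene, the other probe set differed by 0.27 against 5.72 ± 0.27. For Plagl1, an imprinted zinc finger gene, the other 2 differed by 0.09 and 0.21 against 5.71 ± 0.37, and for Tiam1, an activator of the GTPase Rac, by 0.11 and -0.09 against 5.03 ± 0.17. Which transcripts these probe sets read was not tested. Over the 471 genes called higher that have other probe sets, 761 of 981 such probe sets had the same sign, 143 were called the same way and 0 the opposite way.

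**Figure D3:**
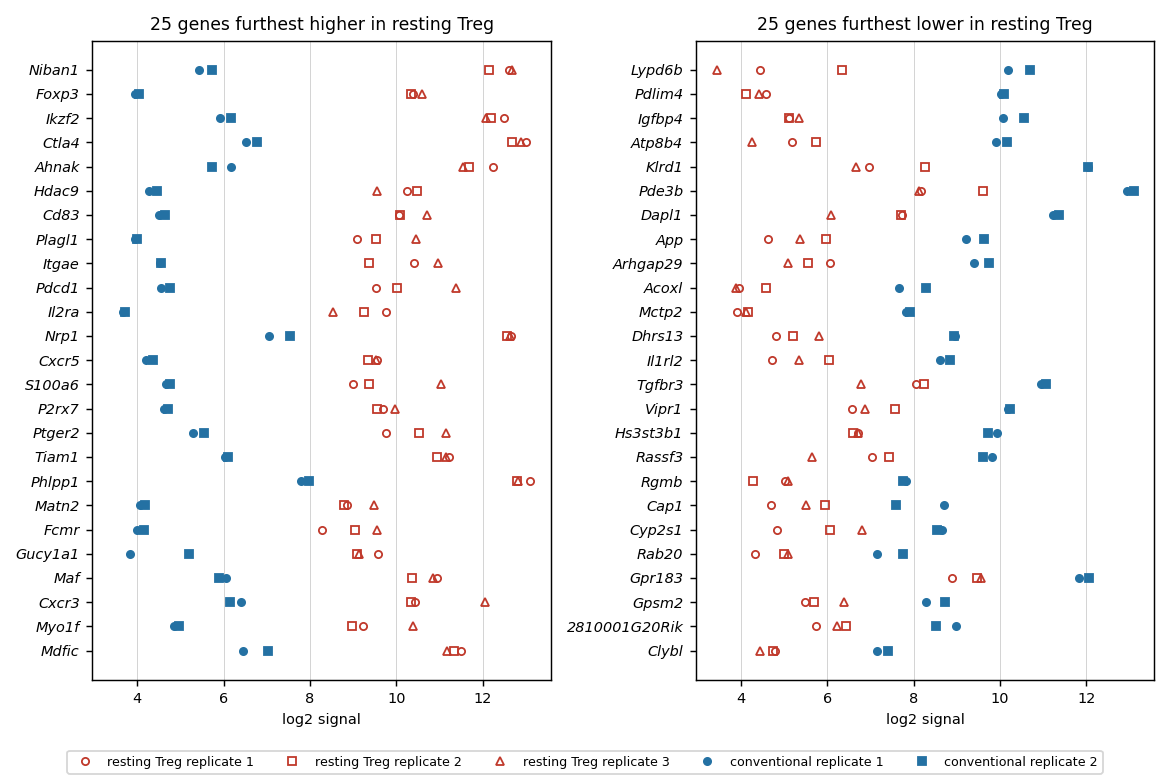
Log2 signal of the 25 genes furthest higher (left) and the 25 furthest lower (right) in resting Treg, 1 row per gene in order of the difference. Open red symbols are the 3 resting Treg arrays and filled blue symbols the 2 conventional arrays. Every row separates the groups, tightly for Foxp3 and Nrp1 and with a wide Treg spread for Pdcd1 and Lypd6b.

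Ctla4 and Pdcd1, whose products restrain T cells, were the receptors of the CD28 family furthest higher in Treg. Ctla4 read 12.999, 12.67 and 12.88 in the Treg arrays against 6.53 and 6.78 in the conventional arrays, a difference of 6.20 ± 0.18 (adjusted p = 2.39e-06). Pdcd1, which encodes PD-1, read 9.52, 10.02 and 11.39 in the Treg arrays against 4.56 and 4.76 in the conventional arrays, a difference of 5.65 ± 0.56 (adjusted p = 0.000906). The PD-1 signal was highest in Treg replicate 3, while CTLA-4 varied little between Treg arrays. Of 27 measured genes of the CD28 family and other costimulatory or inhibitory receptors and ligands, 10 were called higher (3.87% of all genes were) and 0 lower (1.67%), and the list's median was 0.84. Both B7 ligands of CTLA-4 were among them: Cd80 read 8.12, 7.67 and 8.27 in the Treg arrays against 3.69 and 3.82 in the conventional arrays, a difference of 4.26 ± 0.22, and Cd86 read 7.59, 7.69 and 7.83 in the Treg arrays against 4.25 and 4.23 in the conventional arrays, a difference of 3.46 ± 0.17. Their arrays did not overlap. Cd83 (5.71 ± 0.27), a marker of activated antigen-presenting cells that T cells also carry, Slamf1 (3.05 ± 0.36), Cd200 (2.83 ± 0.21), Icos (1.75 ± 0.23), Cd274 (0.94 ± 0.15), which encodes PD-L1, and Cd6 (0.88 ± 0.16) made up the rest. Cd28 itself read 12.43, 11.85 and 11.72 in the Treg arrays against 11.84 and 11.86 in the conventional arrays (difference 0.15 ± 0.22, adjusted p = 0.818). Of the family, 7 were called without conventional replicate 1 and 8 without conventional replicate 2.

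Of 29 measured members of the TNF receptor and ligand superfamily, 5 were called higher and 1 lower, against 3.87% and 1.67% of all genes. The calls fell on 4 receptors and 2 ligands. Tnfrsf9 (4-1BB) was higher by 2.91 ± 0.30, Tnfrsf1b (TNF receptor 2) by 3.20 ± 0.45, Tnfrsf4 (OX40) by 2.53 ± 0.34 and Tnfrsf18 (GITR) by 2.00 ± 0.45. Tnfrsf1b read 9.75, 10.04 and 11.40 in the Treg arrays against 7.03 and 7.37 in the conventional arrays, with replicate 3 above the other Treg arrays, as it was over the list as a whole: 8 of the 29 members lay more than 1 above the mean of the other 2 Treg arrays there. The ligand gene Tnfsf11, which encodes RANKL, was higher by 3.01 ± 0.29. Cd40lg, the helper ligand for B cells, was lower by 0.98 ± 0.16 (4.61, 4.79 and 4.74 in the Treg arrays against 5.66 and 5.72 in the conventional arrays). Tnfrsf9 and Tnfsf11 were the 2 members called without conventional replicate 1, and 4 were called without conventional replicate 2.

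Genes named for suppression or repair had the highest list median, 1.80. Of 22 measured, 12 were called higher and 0 lower, against 3.87% and 1.67% of all genes. The list gathers genes with reported roles in Treg, so its direction is no independent finding. Both enzymes that make adenosine from ATP were called: Nt5e, which encodes CD73, read 11.31, 11.56 and 11.48 in the Treg arrays against 8.14 and 8.51 in the conventional arrays, a difference of 3.13 ± 0.24, and Entpd1, which encodes CD39, read 6.28, 7.50 and 7.78 in the Treg arrays against 4.23 and 4.19 in the conventional arrays, a difference of 2.98 ± 0.44. CD73 signal was even across Treg arrays, and CD39 signal was lowest in replicate 1. P2rx7, the ATP-gated channel that senses the same pool of nucleotide, is not a member of this list. It was higher by 5.07 ± 0.22, and its other probe sets differed by 3.11 and -0.05, the latter not called. Itgb8, whose integrin releases active TGF-beta, was higher by 4.47 ± 0.25, Lgals3 by 3.96 ± 0.62, Fgl2, a secreted fibrinogen-like protein, by 3.88 ± 0.40, Ebi3, a subunit of interleukin-35, by 2.62 ± 0.27, Swap70 by 2.60 ± 0.38, Gpr83 by 2.31 ± 0.39, Lgals1 by 1.97 ± 0.39 and Penk by 1.83 ± 0.40. Tnfaip3 and Ptger4, both given below, were the other calls of the list, and the direction of Ptger4 depends on the probe set. With the probe set of largest variance 10 of the list were called. Il10 and Tgfb1, which encode suppressive cytokines, were not called. Il10 read 4.67, 5.08 and 6.46 in the Treg arrays against 4.20 and 4.39 in the conventional arrays (adjusted p = 0.336), with replicate 3 alone above 6, and Tgfb1 read 6.56, 7.08 and 7.12 in the Treg arrays against 7.14 and 6.92 in the conventional arrays (adjusted p = 0.941). With either conventional replicate left out, 4 of the list were called.

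The interleukin-2 receptor chain genes Il2ra and Il2rb were called higher, and the interleukin-2 gene itself lower. The third chain gene, Il2rg, was not analysed here. Il2ra, which encodes CD25, read 9.76, 9.24 and 8.54 in the Treg arrays against 3.67 and 3.72 in the conventional arrays, a difference of 5.49 ± 0.33 (adjusted p = 7.9e-05), and its other probe set differed by 2.17 ± 0.63 without passing (adjusted p = 0.125). Il2rb read 7.66, 6.95 and 7.62 in the Treg arrays against 4.21 and 4.65 in the conventional arrays, a difference of 2.98 ± 0.28. CD25 signal was lowest in Treg replicate 3, the array in which many other genes were highest, and Il2rb did not follow that order. Il2 read 3.93, 4.18 and 3.88 in the Treg arrays against 4.89 and 4.80 in the conventional arrays, lower by 0.85 ± 0.18 (adjusted p = 0.0303), at low signal in every array. Of 29 measured cytokine receptor genes 5 were called higher and 2 lower, against 3.87% and 1.67% of all genes. The others called higher were Il15ra (2.11 ± 0.23), Il1r2 (2.35 ± 0.52), a decoy receptor for interleukin-1, and Il12rb1 (1.78 ± 0.38). Those called lower were Tgfbr3 (-3.32 ± 0.39), the TGF-beta co-receptor betaglycan, and Il7r (-0.77 ± 0.15), the receptor chain through which naive cells survive. With either conventional replicate left out, 4 of this list were called and the call of Il2 was lost.

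Chemokine and homing receptors went up and down by gene. Cxcr5, which guides cells to B cell follicles, read 9.54, 9.34 and 9.52 in the Treg arrays against 4.21 and 4.36 in the conventional arrays, a difference of 5.18 ± 0.17 (adjusted p = 2.39e-06). Cxcr3, a receptor for interferon-induced chemokines, read 10.42, 10.34 and 12.05 in the Treg arrays against 6.39 and 6.15 in the conventional arrays, a difference of 4.66 ± 0.50. Gpr183, an oxysterol receptor that places cells at the edge of follicles, read 8.88, 9.47 and 9.56 in the Treg arrays against 11.83 and 12.06 in the conventional arrays, a difference of -2.65 ± 0.26 (adjusted p = 0.000838). The Cxcr5 signal was nearly equal in the 3 Treg arrays, and Cxcr3 stood out in replicate 3. In all 7 of 27 measured were called higher, with Gpr15 (3.43 ± 0.28), Ccr6 (3.36 ± 0.27), Ccr2 (2.17 ± 0.48), Ccr9 (1.98 ± 0.46) and P2ry10 (1.93 ± 0.17), and Gpr183 was the 1 called lower. Over all genes 3.87% were called higher and 1.67% lower. Ccr7 and S1pr1, through which naive cells enter and leave lymph nodes, read 10.06, 10.85 and 11.08 in the Treg arrays against 12.12 and 11.93 in the conventional arrays and 9.67, 10.39 and 10.06 in the Treg arrays against 11.77 and 11.71 in the conventional arrays. Every Treg array lay below both conventional arrays for each, as in 20.4% of all genes, and neither passed (adjusted p = 0.0901 and 0.0653). The difference of S1pr1 was -1.70 ± 0.44. Leaving out conventional replicate 1 or 2 left 6 calls in the list.

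Of 35 measured genes of integrins and other adhesion molecules 7 were called higher and 0 lower, against 3.87% and 1.67% of all genes. Among the 24 that encode integrin chains 4 were called higher. Itgae, the alpha chain that holds T cells in epithelium, read 10.40, 9.36 and 10.97 in the Treg arrays against 4.52 and 4.55 in the conventional arrays, a difference of 5.71 ± 0.43, and its other probe set differed by 4.35 ± 0.35. Itgb1 read 10.27, 10.33 and 10.30 in the Treg arrays against 6.95 and 6.84 in the conventional arrays, a difference of 3.40 ± 0.18. Cd44 (1.94 ± 0.21), Cd81 (2.15 ± 0.29), Icam1 (2.03 ± 0.40) and Itgav (1.07 ± 0.22) were the other calls beside Itgb8, and the first 3 of these encode adhesion molecules that are no integrins. The Itgb1 arrays of each group lay within 0.2 of one another, and Itgae varied among Treg arrays by more than 1. Itgb3 read 7.53, 8.69 and 8.64 in the Treg arrays against 9.89 and 9.98 in the conventional arrays, with a difference of -1.65 ± 0.44 that did not pass (adjusted p = 0.0764). Leaving out conventional replicate 1 or 2 left 5 calls.

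The 2 gates differ in CD45RB, and genes of antigen-experienced and of naive T cells differed in opposite directions. Of 34 measured genes of antigen-experienced cells 17 were called higher and 0 lower, against 3.87% and 1.67% of all genes. Their median was 1.66. Among the calls, Maf, Rora, Bhlhe40, Cxcr3, Ccr6, Itgb1, Cd44, Lgals1 and Lgals3 were already counted in lists above, so they are no separate result. Ahnak, also among them, was called on the chosen probe set alone. S100a6 and S100a4, small calcium-binding proteins, read 8.98, 9.36 and 11.03 in the Treg arrays against 4.67 and 4.75 in the conventional arrays and 8.66, 8.40 and 9.89 in the Treg arrays against 4.48 and 4.52 in the conventional arrays, differences of 5.08 ± 0.55 and 4.48 ± 0.38. Anxa2 (4.03 ± 0.36) encodes the annexin that binds another S100 protein, and Vim (2.60 ± 0.29) the filament protein vimentin. Klrg1 (3.15 ± 0.34), an inhibitory lectin receptor of differentiated cells, was also called. Ctla2a (2.93 ± 0.38) and Ctla2b (3.56 ± 0.29) are a near-identical pair whose probe sets may share signal, which was not tested. Treg replicate 3 was the highest over this list: its members lay a median of 0.80 above the mean of the other 2 Treg arrays, 10 of them by more than 1. Called without conventional replicate 1 were 14, and without conventional replicate 2, 15.

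Of 23 measured genes of naive CD4 T cells 7 were called lower, against 1.67% of all genes, and 2 higher, against 3.87%. Their median was -0.77. Igfbp4, a secreted binding protein for insulin-like growth factors, read 5.11, 5.11 and 5.35 in the Treg arrays against 10.06 and 10.55 in the conventional arrays, lower by 5.11 ± 0.34 (adjusted p = 0.000148). Pde3b, a phosphodiesterase that breaks down cyclic AMP, read 8.16, 9.60 and 8.11 in the Treg arrays against 12.93 and 13.09 in the conventional arrays, lower by 4.39 ± 0.44. Dapl1 read 7.73, 7.71 and 6.08 in the Treg arrays against 11.23 and 11.37 in the conventional arrays, lower by 4.13 ± 0.54. In each of these the Treg arrays lay at least 3 below the conventional arrays. Atp1b1 (-1.93 ± 0.39), Lef1, Cd55 (-1.34 ± 0.26) and Il7r were the others, and Id3 and Ccr9 went the other way. Klf2, the quiescence factor that drives S1pr1, read 12.46, 12.62 and 12.25 in the Treg arrays against 13.13 and 13.11 in the conventional arrays, a difference of -0.68 ± 0.18 (adjusted p = 0.0665), and Bach2 read 11.11, 11.89 and 11.20 in the Treg arrays against 12.02 and 12.07 in the conventional arrays (adjusted p = 0.426). Both remained at high signal in Treg. Tcf7 was not analysed here. Of the 23, 3 were called with conventional replicate 1 or 2 left out.

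**Figure D4:**
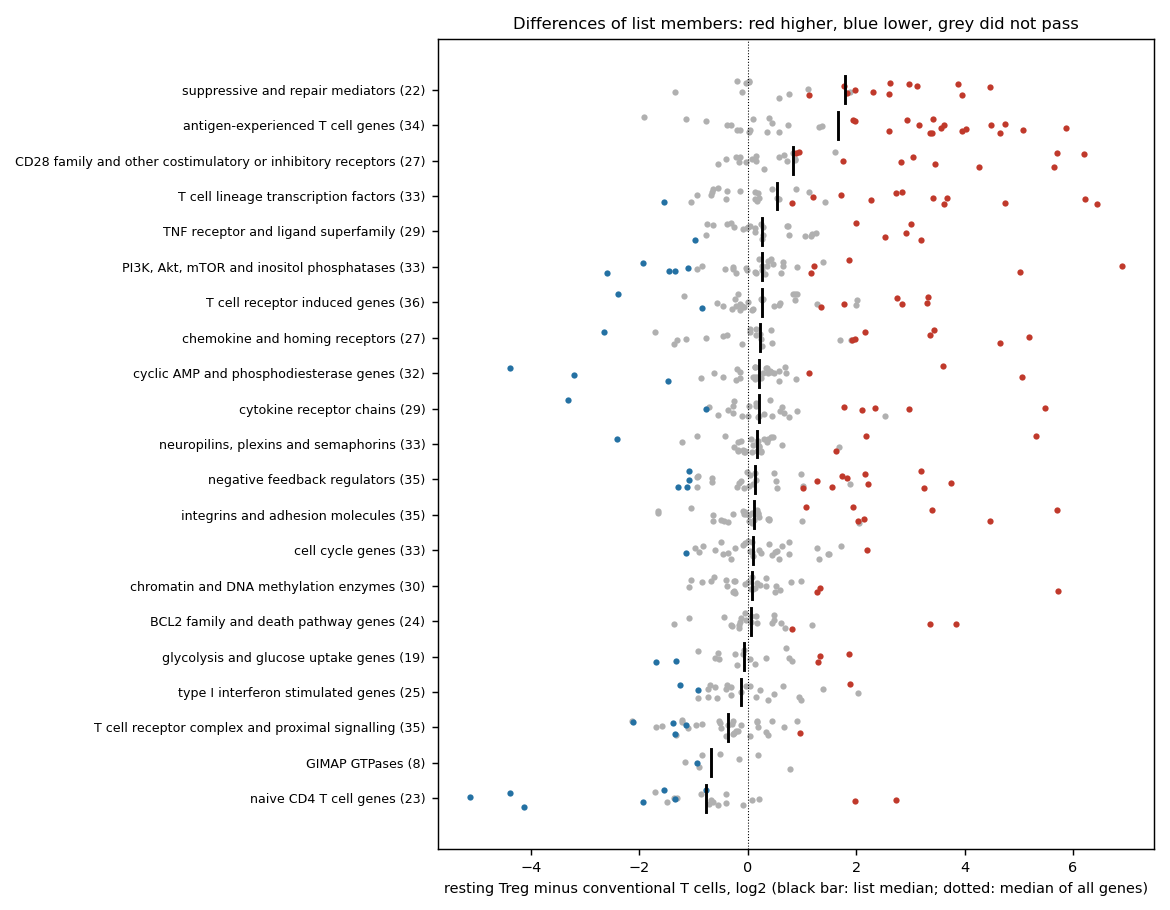
Differences in log2, resting Treg minus conventional T cells, of the members of 21 gene lists, ordered by list median, with the number measured in brackets. Red points were called higher, blue points lower and grey points did not pass; black bars are list medians and the dotted line is the median of all genes at 0.01. The medians run from 1.80 for suppressive and repair mediators down to -0.77 for naive CD4 T cell genes.

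The genes furthest lower in Treg were not, for the most part, members of those lists. Lypd6b, a member of the Ly6 family of anchored surface proteins, read 4.45, 6.34 and 3.45 in the Treg arrays against 10.19 and 10.70 in the conventional arrays, lower by 5.69 ± 0.69 (adjusted p = 0.00251). Pdlim4, a cytoskeletal adaptor, read 4.58, 4.11 and 4.43 in the Treg arrays against 10.02 and 10.09 in the conventional arrays, lower by 5.68 ± 0.18 (adjusted p = 2.39e-06). Klrd1, which encodes CD94, a lectin receptor best known from natural killer cells, read 6.98, 8.25 and 6.67 in the Treg arrays against 12.03 and 12.03 in the conventional arrays, lower by 4.73 ± 0.43 (adjusted p = 0.000545). Pdlim4 was the most even of these, while Lypd6b varied by nearly 3 between Treg arrays and lost its call when arrays with an Actb value over 4 were left out. Atp8b4 (-4.97 ± 0.40) encodes a lipid flippase, App (-4.11 ± 0.48) the amyloid precursor protein and Vipr1 (-3.20 ± 0.29) a receptor for the neuropeptide VIP. Il1rl2 (-3.35 ± 0.34), the interleukin-36 receptor, Hs3st3b1 (-3.14 ± 0.20), a heparan sulfate sulfotransferase, and Rgmb (-2.99 ± 0.27), a co-receptor for bone morphogenetic proteins, also lay in this group. Of the 25 genes furthest lower 12 have other probe sets, and in 7 of them another was called the same way, against 9 of 14 among the 25 furthest higher. The other probe sets of Il1rl2 (-0.54), Vipr1 (-0.41) and Tgfbr3 (-0.36) and the other 3 of Hs3st3b1 (-0.33, -0.21 and -0.11) were not called, so these differences were seen on the chosen probe set alone. Of the 165 genes called lower that have other probe sets, 248 of 291 such probe sets had the same sign, 76 were called the same way and 0 the opposite way.

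Of 35 measured genes of the T cell receptor complex and its first signalling steps, 4 were called lower in Treg and 1 higher, with a median of -0.36. Over all genes 1.67% were called lower and 3.87% higher. Themis, which tunes receptor signals, read 8.90, 9.12 and 9.0 in the Treg arrays against 11.10 and 11.16 in the conventional arrays, lower by 2.12 ± 0.18 (adjusted p = 0.000376), and its Treg arrays lay close together. Trat1 (-1.38 ± 0.29), Sit1 (-1.35 ± 0.29) and Pag1 (-1.14 ± 0.22) encode membrane adaptors, and Malt1 (0.96 ± 0.22), the protease of the NF-kappaB branch, was the 1 called higher. Cd4 read 9.53, 10.11 and 10.09 in the Treg arrays against 11.05 and 11.21 in the conventional arrays and Lat, the central adaptor, read 10.49, 11.27 and 11.17 in the Treg arrays against 12.36 and 12.23 in the conventional arrays, each below both conventional arrays in every Treg array without passing (adjusted p = 0.0848 and 0.114). Over all genes, 20.4% had all Treg arrays below both conventional arrays, and in this list it was 18 of 35. Themis was the 1 gene of the list called with conventional replicate 1 or 2 left out.

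Genes that receptor signals induce did not go one way. Of 36 measured, 6 were called higher and 2 lower, against 3.87% and 1.67% of all genes, with a median of 0.25. Fosl2, an AP-1 subunit, read 8.71, 8.28 and 8.96 in the Treg arrays against 5.20 and 5.45 in the conventional arrays, a difference of 3.32 ± 0.25. Rgs1 (3.31 ± 0.29) and Rgs16 (2.84 ± 0.29), which damp G protein signals, Gadd45b (2.76 ± 0.47), Tnfaip3 (1.78 ± 0.25), which encodes the NF-kappaB inhibitor A20, and Egr1 (1.34 ± 0.23) were also higher. Myc read 6.63, 6.78 and 4.80 in the Treg arrays against 8.45 and 8.49 in the conventional arrays, lower by 2.40 ± 0.52 (adjusted p = 0.0354), with the lowest signal in Treg replicate 3. Of 35 negative feedback genes 10 were called higher and 4 lower, against the same 3.87% and 1.67%, with a median of 0.13. Among the inhibitors of cytokine signals the family split: Socs2 (3.20 ± 0.50), Cish (2.16 ± 0.26) and Socs5 (1.74 ± 0.24) were higher, and Socs3 (-1.08 ± 0.21) and Socs1 (-1.09 ± 0.20) lower. Phosphatase genes Ptpn13 (3.75 ± 0.27) and Dusp4 (3.25 ± 0.43) and the adaptor genes Spry1 (2.22 ± 0.22), Sla (1.55 ± 0.21) and Grap (1.28 ± 0.30) were higher, with Rgs2 (1.84 ± 0.28) and Rgs3 (1.01 ± 0.19), and the pseudokinase genes Trib2 (-1.13 ± 0.23) and Trib3 (-1.28 ± 0.22) were lower. Each list kept 3 calls without conventional replicate 1, and without conventional replicate 2 the induced genes kept 3 and the feedback genes 5.

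In the PI3K and Akt pathway as many genes were called lower as higher. Phlpp1, a phosphatase that removes an activating phosphate from Akt, read 13.09, 12.79 and 12.82 in the Treg arrays against 7.79 and 7.99 in the conventional arrays, a difference of 5.01 ± 0.18 (adjusted p = 4.87e-06). Inppl1 (1.86 ± 0.24) and Inpp5f (1.21 ± 0.21), inositol phosphatase genes, and Eif4ebp1 (1.17 ± 0.26), a brake on translation, were higher. Sgk1, a kinase activated through PI3K, read 9.52, 9.71 and 8.89 in the Treg arrays against 12.11 and 11.83 in the conventional arrays, lower by 2.59 ± 0.27 (adjusted p = 0.00107). Its Treg arrays lay more than 2 below the conventional ones. Rictor (-1.93 ± 0.34), the core of mTOR complex 2, and the PI3K subunit genes Pik3cd (-1.34 ± 0.22) and Pik3r5 (-1.45 ± 0.33) were lower, and so was the PI3K inhibitor gene Pik3ip1 (-1.10 ± 0.17). With Niban1, which was placed in this list, 5 of 33 were called higher and 5 lower, against 3.87% and 1.67% of all genes. The list's median was 0.26. With the probe set of largest variance 3 were called higher and 4 lower, and Inpp5f, Eif4ebp1, Pik3cd and Pik3r5 were not called. Leaving out conventional replicate 1 or 2 left 4 calls, Phlpp1, Sgk1 and Niban1 among them.

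Among cyclic AMP genes, receptors, enzymes and a target were called. Ptger2, a receptor for prostaglandin E2 that raises cyclic AMP, read 9.77, 10.52 and 11.15 in the Treg arrays against 5.30 and 5.55 in the conventional arrays, a difference of 5.05 ± 0.48 (adjusted p = 0.000678). Crem, a factor induced by cyclic AMP, read 9.45, 9.28 and 10.40 in the Treg arrays against 6.02 and 6.20 in the conventional arrays, a difference of 3.60 ± 0.32. Pde3b and Vipr1, given above, were lower, as was Ada, the enzyme that removes adenosine (4.63, 4.69 and 4.60 in the Treg arrays against 6.03 and 6.19 in the conventional arrays, lower by 1.47 ± 0.22). Ptger4, a related prostaglandin receptor, was higher by 1.13 ± 0.20 on the chosen probe set and lower by 0.37 on the probe set of largest variance, which did not pass, so its direction depends on the probe set. In all 3 of 32 were called higher and 3 lower, against 3.87% and 1.67% of all genes, with a median of 0.21. With the probe set of largest variance 2 were called higher and 6 lower. Ptger2, Crem, Pde3b and Vipr1 were called also with conventional replicate 1 or 2 left out.

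Nrp1 was called higher in Treg, and Sema4a was the 1 semaphorin gene called lower. Nrp1 read 12.64, 12.56 and 12.63 in the Treg arrays against 7.05 and 7.53 in the conventional arrays, a difference of 5.32 ± 0.19 (adjusted p = 4.26e-06). Sema4a, a semaphorin whose immobilised form the series also tested on Treg, read 6.45, 6.19 and 5.76 in the Treg arrays against 8.38 and 8.71 in the conventional arrays, lower by 2.41 ± 0.24 (adjusted p = 0.000788), and its other probe set was lower by 3.37 ± 0.35. No Treg array reached a conventional array in Sema4a. Plxnc1, a semaphorin receptor, was higher by 2.18 ± 0.20, but lost its call on the probe set of largest variance, and Sema3d was higher by 1.62 ± 0.23. These were the 4 calls among 33 measured neuropilins, plexins and semaphorins, whose median was 0.16, and 3 higher and 1 lower stand against 3.87% and 1.67% of all genes. Sema6d read 4.35, 5.27 and 8.63 in the Treg arrays against 4.21 and 4.60 in the conventional arrays, high in Treg replicate 3 alone (adjusted p = 0.483). Nrp1, Plxnc1 and Sema4a were called also with conventional replicate 1 or 2 left out.

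The 6 further lists follow, read against the 3.87% called higher and 1.67% called lower over all genes. Of 30 chromatin and DNA methylation enzymes 3 were higher: Hdac9, Kdm2b (1.34 ± 0.24) and the DNA methyltransferase gene Dnmt3a (1.27 ± 0.20). Of 24 BCL2 family and death pathway genes 3 were higher: Pmaip1 (3.84 ± 0.33), which encodes the killer protein NOXA, Casp4 (3.35 ± 0.38) and the survival gene Bcl2l1 (0.81 ± 0.18). NOXA read 7.27, 7.92 and 8.22 in the Treg arrays against 3.99 and 3.92 in the conventional arrays, with conventional arrays near the low end of the scale. Of 19 glycolysis genes the glucose transporter gene Slc2a1 (1.30 ± 0.18), Ldhb (1.33 ± 0.14) and Aldoc (1.87 ± 0.37) were higher, and Slc16a1 (-1.70 ± 0.24), a lactate carrier gene, and Pdk1 (-1.32 ± 0.20) lower. Of 33 cell cycle genes Mki67 (2.20 ± 0.45) was higher and Ccne1 (-1.15 ± 0.25) lower, of 25 interferon-stimulated genes Isg20 (1.88 ± 0.37) was higher and Oasl2 (-1.26 ± 0.27) and Ifit2 (-0.91 ± 0.21) lower, and of 8 GIMAP genes Gimap9 (-0.95 ± 0.22) was lower. In either direction 26.3% of the glycolysis list was called and between 10% and 12.5% of the chromatin, death pathway, interferon and GIMAP lists. The share of the cell cycle list, 6.06%, lay near the 5.54% called over all genes. With conventional replicate 1 or 2 left out, 0 of the cell cycle, interferon and GIMAP genes, 1 chromatin gene (Hdac9) and 2 death pathway genes (Pmaip1 and Casp4) were called, and of glycolysis genes 1 and 3.

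Markers of other cells were counted because sorted samples can hold them. Over all genes 3.87% were called higher and 1.67% lower. B cell markers were called higher in 3 of 10: Cd79b read 6.19, 7.24 and 7.75 in the Treg arrays against 4.10 and 4.31 in the conventional arrays, a difference of 2.85 ± 0.48, Ighm 0.77 ± 0.15 and Cd79a 0.73 ± 0.16. The summed linear signal of this list was 12475 to 13787 in Treg and 7465 to 8149 in conventional T cells, and none of the 3 was called without conventional replicate 1 or 2. No dendritic cell or MHC class II marker of 11 was called, although Cd74 passed with the Xist class as a term and H2-Aa and Batf3 with the Actb class as one. In this list 1 marker was called higher without Treg replicate 1, and 1 without Treg replicate 3. With arrays over an Actb value of 4 left out 1 was called higher, and with array weights 3. The summed signal was 816, 1207 and 3467 in Treg against 572 and 637. H2-Aa read 7.79, 8.86 and 10.55 in the Treg arrays against 6.64 and 6.24 in the conventional arrays (adjusted p = 0.114) and Cd74 read 7.02, 7.18 and 9.34 in the Treg arrays against 5.74 and 5.77 in the conventional arrays, both highest in Treg replicate 3. That array was also the highest in Ifng (4.98, 4.69 and 7.71 in the Treg arrays against 3.74 and 3.81 in the conventional arrays), Tbx21 (4.85, 5.0 and 7.46 in the Treg arrays against 4.36 and 4.34 in the conventional arrays), Csf2rb (5.82, 7.17 and 9.39 in the Treg arrays against 4.85 and 5.02 in the conventional arrays) and Irf8 (6.44, 6.10 and 9.11 in the Treg arrays against 5.14 and 5.30 in the conventional arrays), none of them called. Myeloid markers summed to 6215 to 7797 in Treg and 6997 to 7317 in conventional T cells, with 0 of 16 called, erythroid markers to 126 to 148 and 128 to 140, with 0 of 5, and CD8 and NK markers to 470 to 607 and 4566 to 4697, where Klrd1 was the 1 of 11 called and made up most of the difference: the other 10 summed to 302 to 373 and 397 to 512. The part of other cells in Cd80, Cd86, Cd83, Cd74 and similar genes of antigen-presenting cells was not tested. Without Treg replicate 3, Cd80, Cd86 and Cd83 kept their calls, but that fit cannot decide the part of other cells. The dendritic cell and MHC class II sums of Treg replicates 1 and 2, 816 and 1207, also lay above both conventional sums.

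Promoter sequence was set beside the calls for letters of known factors. RefSeq windows of 300 bases on build GRCm38.p6, from 250 before to 50 after a gene start, matched 14367 of the measured genes, 525 of them called higher and 252 lower. The AP-1 letters TGANTCA, where N is any base, form a pattern that is the same on both strands. They were in 6.35% of all 18006 windows, in 8.3% of those of genes called higher (53 genes) and in 2.96% of those of genes called lower (9 genes). Forkhead letters TGTTTAC, searched on both strands, were in 2.97%, 2.91% and 1.48%, RUNX letters TGTGGTT in 4.22%, 3.64% and 2.66%, and TCF/LEF letters CTTTGAA in 4.11%, 4.08% and 3.85%. CRE letters TGACGTCA were in 2.5%, 1.75% and 1.48%, KLF letters CCCCACCC in 12.4%, 14.4% and 12.1%, E-box letters CACGTG in 8.74%, 7.57% and 8.28%, and ETS letters CCGGAAG in 13%, 10.9% and 16%. These shares were not tested, and a match is neither a bound site nor a cause. Of the called genes picked out by the rule for naming, 82 called higher and 45 called lower have a window. AP-1 letters were in 1078 of all 14367 genes with a window, in 53 of the 525 called higher and in 9 of the 252 lower. Of these named genes, 13 called higher and 1 called lower held them. Those with a match that starts within 100 bases before the gene start are shown 5′ to 3′ in the direction of the gene, with the AP-1 letters in capitals, so that the like letters and unlike surroundings can be compared:
Hdac9 (chr12:34528915-34528971, minus strand, match 57 bases before the start): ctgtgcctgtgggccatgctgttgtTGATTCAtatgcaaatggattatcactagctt
Tiam1 (chr16:89974683-89974739, minus strand, match 15 bases before the start): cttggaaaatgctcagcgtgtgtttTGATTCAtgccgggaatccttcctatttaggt
Il15ra (chr2:11705657-11705713, plus strand, match 30 bases before the start): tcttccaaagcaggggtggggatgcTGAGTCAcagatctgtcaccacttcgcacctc
Cd80 (chr16:38458866-38458922, plus strand, match 42 bases before the start): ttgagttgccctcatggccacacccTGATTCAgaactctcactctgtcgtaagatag
Tnfrsf9 (chr4:150927959-150928015, plus strand, match 15 bases before the start): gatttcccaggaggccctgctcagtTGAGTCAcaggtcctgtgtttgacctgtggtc
Fgl2 (chr5:21372632-21372688, plus strand, match 16 bases before the start): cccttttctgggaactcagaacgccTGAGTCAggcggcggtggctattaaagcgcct
P2ry10 (chrX:107088368-107088424, plus strand, match 99 bases before the start): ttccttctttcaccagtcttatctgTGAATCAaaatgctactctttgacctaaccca
Anxa2 (chr9:69453563-69453619, plus strand, match 95 bases before the start): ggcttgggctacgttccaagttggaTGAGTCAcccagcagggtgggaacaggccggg
Atp8b4 (chr2:126491560-126491616, minus strand, match 38 bases before the start): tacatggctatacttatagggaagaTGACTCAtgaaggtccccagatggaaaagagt
The first 8 genes were higher in Treg by 1.93 to 5.72 and the last, Atp8b4, was lower. The base at N was T in Hdac9, Tiam1 and Cd80, A in P2ry10 and C or G in the others. The usual AP-1 site has C or G at N, so the letters searched are looser than that site. Shares with C or G alone at N were not counted. Whether Fosl2, the AP-1 subunit gene called higher above, has any part in these genes was not tested.

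The threshold falls in a dense part of the ranking. Just inside it lay Zfp938 (-0.68) and Nlrx1 (1.49), and just outside it Prc1 (1.31, adjusted p = 0.0501) and Trmt6 (0.66, adjusted p = 0.0502), all by limma's test. Near it lay Tox (adjusted p = 0.0484) and Grap (adjusted p = 0.0483). The 29 named genes whose call was lost without 1 of the Treg arrays were Tox, Foxo1, Il7r, Il12rb1, Tnfrsf18, Lgals1, Ccr2, Ccr9, Itgav, Icam1, Trat1, Sit1, Malt1, Pag1, Il2, Socs3, Grap, Trib2, Pik3r5, Eif4ebp1, Bcl2l1, Gimap9, Mki67, Ccne1, Ifit2, Oasl2, Cd79a, Ighm and Rab20. Foxp3, Ikzf2, Ctla4, Nrp1 and Niban1, by contrast, were called under every alternative run.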

How the data were processed

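RNA from sorted T cells had been hybridised to Affymetrix arrays after 2-cycle labelling of 1 µg, per the labels' protocols. The deposited values are log2 signals per probe set, made by the authors with RMA and Partek 6.6 per the submitters' processing notes; the sources used here do not give other settings. Of 45101 probe sets, 34958 were annotated with 1 gene, 932 with several and 9211 with none; 13 control probe sets were left out, and 18193 genes remained. The number of arrays limits the precision.

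The 8 sorted T cell arrays entered 1 fit of 3 group means (limma 3.58.1, R 4.3.3, lmFit and eBayes, two-sided, 5 residual degrees of freedom, Benjamini-Hochberg adjustment, threshold 0.05), checked on simulated data. The arrays of the ligand experiment were not used here. The genes named are the 25 furthest higher and 25 furthest lower among those called, members of the gene lists, genes at the threshold, and genes that stood out between replicates, chosen after their values were seen. The comparison and the lists were chosen with earlier results of these data known. Some genes stand in more than 1 list, so the counts of the lists overlap. Alternatives covered the probe set, low signals, normalization, variance model, array quality, each array left out and, added after the results were seen, the Xist class and sets of title numbers. Promoter windows came from RefSeq tables of GRCm38.p6; gene coordinates are not given.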

Additional observations from a re-analysis of the deposited data

How the results depend on the processing

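The count of 1008 called genes stayed within 1.5 times of that value with genes under a mean of 5 left out, the 5 resting arrays alone, the probe set of largest variance, every probe set tested on its own, a second quantile normalization, a trended robust variance, arrays with an Actb 3' minus 5' value over 4 left out, and the Xist class as a term (862 to 1229). It was 3005 with array weights, 1633 with the Actb class as a block and 191 when tested against a difference of 1. Leaving out 1 array gave 242 to 871, with the fewest without a conventional array. The group difference in the Actb 3' minus 5' signal, 2.31, was 1.20 to 2.90 with 1 array left out and 0.22 for Gapdh; the cause was not tested. Of 166 named called genes, 79 kept their call in every alternative, and 1, Ptger4, reversed, to -0.37 with the probe set of largest variance, where it did not pass. With that probe set 25 others lost their call without reversing, Cd44, Dnmt3a, Trib3 and Pdk1 among them. The labels give these arrays no replicate numbers. With sets of arrays whose title numbers share their first digits as a replicate block, chosen after seeing the data, 1980 genes were called, 977 of the 1008 among them, and of the named calls Oasl2 alone was lost. What the numbers stand for is not stated. Arrays of 1 set were alike in Xist class and in lying over or under an Actb value of 4. Treg replicate 1 shared its set with no conventional array. Deviations of arrays in 1 set correlated from -0.0337 to 0.463. Whether a set shared animals or preparation was not tested, and the arrays were not treated as paired. Cd74, H2-Aa and Batf3, of the 11 dendritic cell and MHC class II markers, were called with this block. Signal near the floor of the arrays, as for Il2 and Foxp3 in conventional T cells, compresses differences.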

Other observations

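Several of the 25 genes furthest higher in resting Treg belong to none of the lists. Matn2, which encodes the matrix protein matrilin-2, read 8.86, 8.79 and 9.49 in the Treg arrays against 4.06 and 4.18 in the conventional arrays, a difference of 4.93 ± 0.25. Fcmr, the receptor for immunoglobulin M, read 8.28, 9.04 and 9.56 in the Treg arrays against 4.0 and 4.15 in the conventional arrays, a difference of 4.88 ± 0.43. Gucy1a1, a subunit of the nitric oxide sensor guanylate cyclase, read 9.58, 9.08 and 9.14 in the Treg arrays against 3.83 and 5.20 in the conventional arrays, a difference of 4.76 ± 0.38, and its 2 conventional arrays differed by more than 1. Myo1f, an unconventional myosin, read 9.23, 8.98 and 10.38 in the Treg arrays against 4.86 and 4.97 in the conventional arrays, a difference of 4.61 ± 0.37, and Mdfic read 11.49, 11.33 and 11.17 in the Treg arrays against 6.45 and 7.02 in the conventional arrays, a difference of 4.60 ± 0.22. All 5 were called by limma, and in each the lowest Treg array lay more than 3 above the highest conventional array.

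Some of the widest gaps between the Treg arrays were in genes that were not called and were picked out here by those gaps. Fscn1, an actin-bundling protein of mature dendritic cells, read 7.32, 9.84 and 11.82 in the Treg arrays against 5.42 and 5.81 in the conventional arrays. Ctsh, a lysosomal protease, read 5.32, 5.76 and 9.26 in the Treg arrays against 4.39 and 4.38 in the conventional arrays, and Cd5l, a protein secreted by macrophages, read 4.47, 4.50 and 8.29 in the Treg arrays against 4.66 and 5.31 in the conventional arrays. Anxa3 read 5.85, 7.98 and 9.77 in the Treg arrays against 5.02 and 5.07 in the conventional arrays and Marcksl1 read 5.69, 6.95 and 9.05 in the Treg arrays against 5.32 and 4.99 in the conventional arrays. In all 5 Treg replicate 3 was the highest array and both conventional arrays lay under 6. The reverse also occurred: Itih5 read 9.44, 9.69 and 6.19 in the Treg arrays against 6.22 and 5.93 in the conventional arrays, with replicate 3 alone at the conventional level. What these gaps come from was not tested.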
